A study of Mactra quadrangularis with 6 samples.

Results

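Among 3 acidified mantle libraries of Mactra quadrangularis, a surf clam also named Mactra veneriformis, 54 of the 25145 genes in the deposited table differed widely from one library to another while staying even among the controls. A gene was taken when its count reached at least 50 in an acidified library, when the highest of the 3 acidified libraries was at least 8 times the lowest, and when the highest of the 3 control libraries was at most 2 times the lowest with a mean control level of at least 1. Levels are CPM, the count scaled to a common library total, and each ratio was taken after adding 0.5 CPM to both levels. The genes were chosen by these measured values, so the spread among acidified libraries and the evenness of the controls are the definition of the set and not a finding. The data are poly(A) RNA libraries of mantle, which forms the shell. The acidified group holds 3 libraries labelled as acidification stress and the control group holds 3 libraries from normal seawater, numbered 1 to 3 in each group. The series text speaks of a high pH for the acidified clams, and acidified is therefore used as the label's name only. The labels state neither the dose, duration, age and shell colour of each library nor whether each came from a separate animal.

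Bivalves have no antibodies. They carry large families of secreted recognition proteins (C1q-domain proteins, C-type lectins) and of intracellular survival and stress proteins (inhibitors of apoptosis, heat shock 70 kDa protein 12 relatives), which are known to be expanded in this class. Inhibitors of apoptosis bind and block caspases, the proteases that carry out programmed cell death. C1q-domain proteins and lectins bind sugars or other surface molecules of microbes and of the animal's own cells.

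Total counts were 28482358, 30380052 and 37066703 in acidified libraries 1, 2 and 3, and 32512165, 32992500 and 31929388 in control libraries 1, 2 and 3. A single count was therefore worth 0.0270 to 0.0351 CPM in acidified libraries and 0.0303 to 0.0313 CPM in control libraries. Over the 16125 genes with at least 50 counts in a library, Spearman correlations were 0.910 to 0.927 between acidified libraries and 0.924 to 0.938 between control libraries. The ratio of highest to lowest was at least 2 for 31.9% of these genes among acidified libraries and for 24.2% among controls. It was at least 8 for 324 genes among acidified libraries and for 308 among controls. These shares and numbers use total counts as the scale and were not recomputed with the TMM scaling described below. Genes described as shell matrix or calcification proteins summed to 3862 to 4177 CPM in acidified libraries and 3521 to 4481 CPM in control libraries, and 36 of the 71 reached 50 counts in a library. In bulk tissue, fewer cells of a type and less RNA per cell cannot be told apart.

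Of the 324 genes with a ratio of at least 8 among acidified libraries, 219 also had a control ratio over 2, a further 51 had a mean control level under 1 CPM, and 54 remained. Those 54 were 0.485% of the 11136 genes that met every other criterion. With the groups exchanged, so that controls diverged and acidified libraries were even, 30 of 10058 genes met the rule, or 0.298%. Leaving out acidified replicate 1, 2 or 3 gave 23, 25 or 20 genes, and leaving out control replicate 1, 2 or 3 gave 93, 99 or 104. The number added to the levels mattered as well, with 115 genes when 0.1 CPM was added. Only 43 of the 54 genes were among these 115. The ratio within the 54 genes ran from 8.01 to 190.6 among acidified libraries, with a median of 10.01, and was at least 16 in 11 of them. Among control libraries it ran from 1.10 to 1.99, with a median of 1.60. Over the 11136 genes the median ratio, on total counts, was 1.54 among acidified and 1.38 among control libraries. Just inside the threshold lay Mve12G000140, a hypothetical protein, at 8.01, and the C1q protein Mve05G007300 at 8.06. Just outside lay the helicase-like gene Mve01G012340 at 7.80 and the undescribed gene Mve06G012560 at 7.75.

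**Figure D1:**
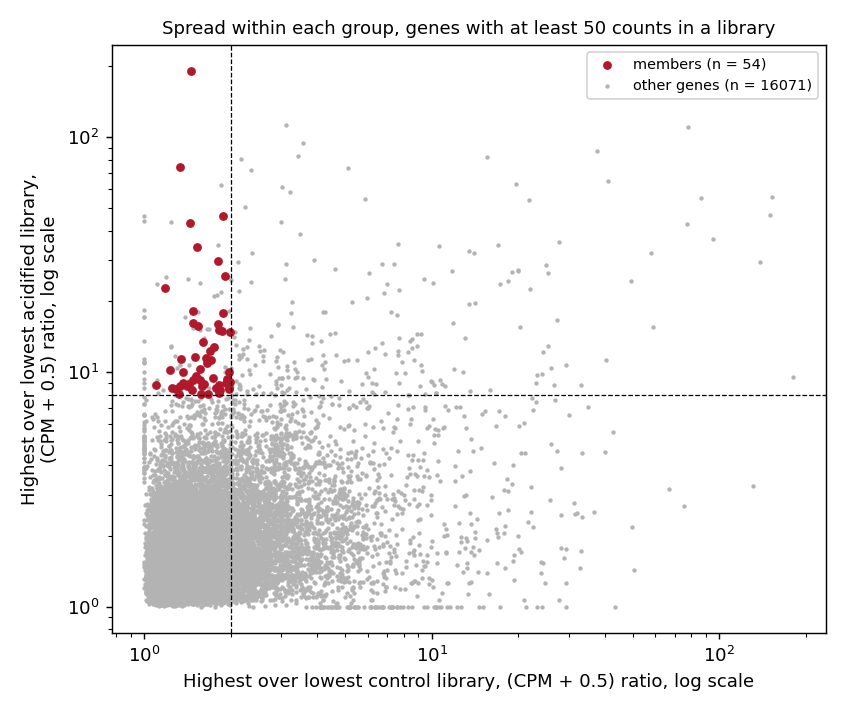
Ratio of highest to lowest library within the acidified group (vertical, log scale) against the same ratio within the control group (horizontal, log scale), for 16125 genes with at least 50 counts in a library. Dashed lines mark ratios of 8 and 2, and the 54 red points in the upper left field are the genes described here. Grey points in that field had a mean control level under 1 CPM.

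Acidified library 2 was the highest of the 3 for 23 of the 54 genes, library 3 for 22 and library 1 for 9. Among the 11136 genes the highest library was library 1 for 51.2%, library 2 for 23.4% and library 3 for 25.4%. These shares use total counts as the scale and were not recomputed with the TMM scaling described below. The TMM factors of acidified libraries 1, 2 and 3 were 0.987, 0.853 and 0.849, so that scaling raises libraries 2 and 3 relative to library 1. Library 1 was the lowest for 26 of the 54 genes, library 3 for 15 and library 2 for 13. The most frequent combination was library 3 highest with library 1 lowest, in 14 genes, followed by library 2 highest with library 1 lowest, in 12, and library 2 highest with library 3 lowest, in 11. A group of 7 genes shared 1 description, and all were highest in library 3 and lowest in library 1. With these 7 counted once the order turned, with 8, 12 and 11 genes. Among the 48 genes then left, library 3 was the highest for 16 and library 1 the lowest for 20. The order of the libraries depended on the settings. At a ratio of at least 4, library 1 was the highest for 117 of 291 genes, library 2 for 92 and library 3 for 82, and with 0.1 CPM added the counts were 38, 41 and 36.

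Control levels mostly lay between the acidified extremes. The mean control level lay inside the acidified range for 47 of the 54 genes, under the lowest acidified library for 4 and over the highest for 3. At least 1 acidified library exceeded all 3 controls in 49 genes, at least 1 lay below all 3 controls in 47, and both held for 42. These counts, and the positions of single genes given below, use total counts as the scale. They were not recomputed with TMM scaling. The TMM factors were 0.849 to 0.987 in acidified and 1.083 to 1.188 in control libraries. That scaling raises acidified libraries relative to controls, and a library close to the controls can change its place against them. The acidified library farthest from the control mean on the log2 scale lay above it in 27 genes and below it in 27. With the 7 genes of shared description counted once, it lay above in 21 and below in 27. Over all 54 genes, that farthest library was library 3 in 30, library 2 in 19 and library 1 in 5. With the log2 range of each gene divided into 3 equal parts, the middle library stood in the upper part in 20 genes, in the central part in 21 and in the lower part in 13.

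Set against the control mean with 0.5 CPM added, acidified library 1 was at least 2-fold above it for 7 of the 54 genes and at least 2-fold below it for 16. Library 2 was above for 21 and below for 12, and library 3 was above for 27 and below for 18. Over the 11136 genes, 2.16%, 1.76% and 2.07% were at least 2-fold above the control mean in acidified libraries 1, 2 and 3, and 7.47%, 13.4% and 19.3% were at least 2-fold below it. These levels use total counts as the scale. With TMM scaling, which sets the bulk of genes level between libraries, the median log2 fold change over all genes was -0.003, against -0.33 with total counts. None of the 101 values beyond 2-fold then changed side, 2 came within 2-fold, and the highest and lowest libraries of all 54 genes were unchanged. Further values passed 2-fold above. With TMM scaling, acidified libraries 1, 2 and 3 were above for 10, 23 and 31 genes and below for 15, 11 and 18. On total counts, 8 genes had libraries 2 and 3 above with library 1 near the controls, the most frequent shape. Next came library 3 alone above, in 7, and library 3 alone below, in 5. The 7 genes with library 3 alone above are the repeated genes of shared description described further on, which make 1 gene when counted once.

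**Figure D2:**
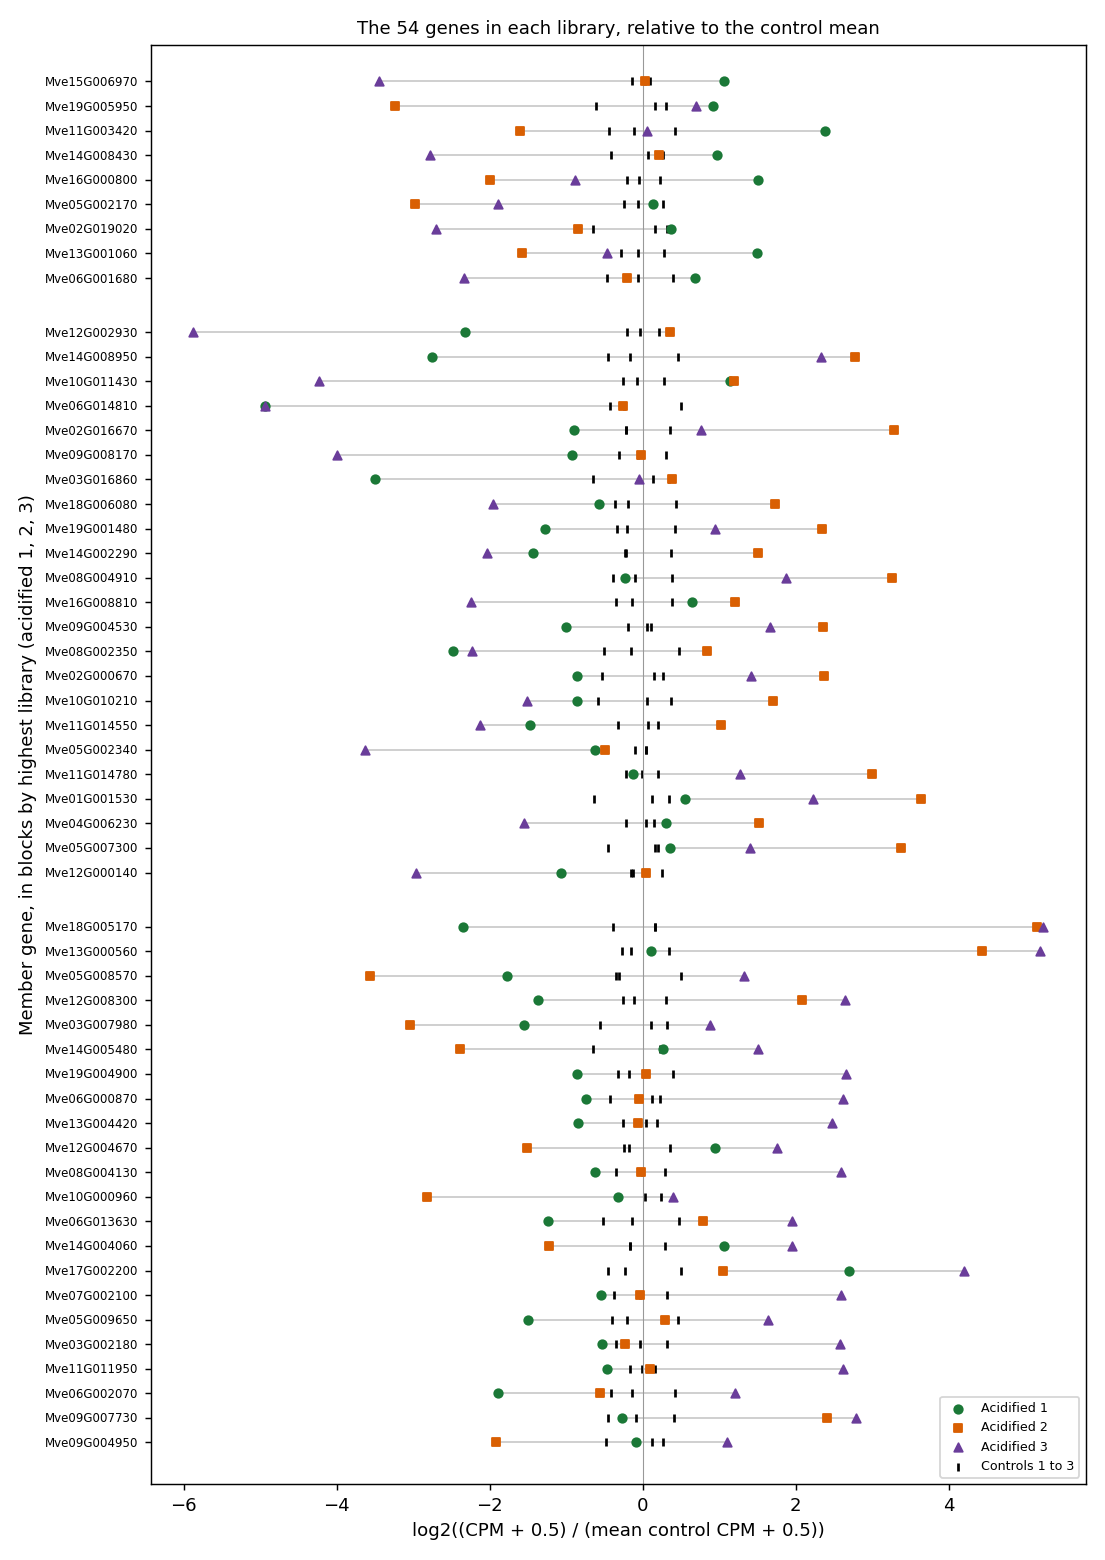
Each row is 1 of the 54 genes, in 3 blocks by which acidified library is highest (9, 23 and 22 genes from top to bottom). The horizontal axis gives log2 of CPM + 0.5 over the control mean + 0.5, with coloured symbols for the 3 acidified libraries and black ticks for the 3 controls. Green circles (library 1) are often at the left end in the lower blocks, and the control ticks stay close to 0.

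The largest ratio among members with an informative description, 74.7, belonged to a gene of cell death. The inhibitor of apoptosis-2 gene Mve12G002930 (chromosome 12, 9921528 to 9922877), a relative of caspase inhibitors, had 5.34, 36.9 and 0 CPM in acidified libraries 1, 2 and 3, and 25.0, 33.4 and 28.0 CPM in control libraries 1, 2 and 3. Library 2 was just above the highest control, library 1 was below all of them and library 3 held no count at all. Against a floor of 3 counts in library 3, library 2 was at least 456-fold higher and the control mean of 28.8 ± 4.27 CPM (SD, n = 3) at least 356-fold higher. Of 43 genes described as inhibitors of apoptosis, 32 reached 50 counts in a library and 14 met every other criterion, and Mve12G002930 was the 1 that diverged. Over all genes that met every other criterion, 0.485% diverged. The 32 inhibitor of apoptosis genes had a median ratio of 1.9 among acidified and 2.06 among control libraries. This family was looked up after the values were seen. Counting of reads among near-identical relatives is uncertain in this and the other large families below.

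The FAS-associated death domain protein-like gene Mve09G008170 (chromosome 9, 27820239 to 27829506), a relative of the vertebrate adaptor that links death receptors to caspases, had 5.51, 10.7 and 0.216 CPM in acidified libraries 1, 2 and 3. The controls had 13.6, 8.70 and 10.5 CPM. Library 2 lay among the controls, library 1 was below them and library 3 far below them. Of 46 apoptosis regulators that met every other criterion, 2 were in the set, or 4.35%, where 0.485% of all such genes were. These were Mve12G002930 and the C1q tumor necrosis factor-related gene below, which the list matched only through the wording of its name. The members were known when the list was written, so this share describes the set.

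C1q-domain proteins gave 2 genes, both highest in acidified library 2. The complement C1q tumor necrosis factor-related protein 4 gene Mve05G007300 (chromosome 5, 22069091 to 22071082) had 35.0, 285.5 and 72.5 CPM in acidified libraries 1, 2 and 3, and 31.4, 19.7 and 30.4 CPM in the controls. All 3 acidified libraries were above all 3 controls, and library 2 was 10.3-fold above the control mean with 0.5 CPM added. The complement C1q-like protein 4 gene Mve19G001480 (chromosome 19, 4718957 to 4720142) had 1.62, 25.5 and 9.33 CPM in acidified libraries 1, 2 and 3, and 6.37, 3.91 and 3.54 CPM in the controls. Here library 1 was below all controls and libraries 2 and 3 were above them. The C1q family is variable among controls too. Of 116 C1q genes 51 reached 50 counts, with a median ratio of 2.07 among acidified and 2.23 among control libraries, so only 19 met every other criterion. A ratio of at least 8 was reached by 4 of the 51 among acidified libraries and by 3 among controls.

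The C-type lectin domain family 17 member A gene Mve18G006080, a relative of calcium-dependent sugar-binding receptors, had 0.808, 5.89 and 0 CPM in acidified libraries 1, 2 and 3, and 2.12, 1.0 and 1.19 CPM in the controls. Library 2 was above all controls and the other two libraries were below them. Together with the C1q genes it made 3 of 86 pattern recognition genes that met every other criterion, or 3.49%, where 0.485% of all such genes were in the set. The members were known when the lists were written, so this share describes the set. The blood cell marker list, which holds the 2 C1q genes as well, summed to 3150, 2939 and 2697 CPM in acidified libraries 1, 2 and 3, and 2660, 2363 and 2877 CPM in the controls. Its highest acidified library was library 1. The list matches C1q genes by name, so its sum is not a separate measure of blood cells. The muscle list summed to 20830, 13380 and 12162 CPM in acidified libraries 1, 2 and 3, and 22650, 25843 and 16094 CPM in the controls, with acidified library 1 the highest of its group. None of the 21 muscle, 27 digestive gland, 48 cilia, 24 germ line and 43 nerve markers that met every other criterion was in the set. Beside the share of 0.485% over all such genes, these lists are too short for an absence to be read as a result. The part of other cell types in these results was not tested.

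The interferon-induced protein 44-like gene Mve11G003420, a relative of a GTP-binding protein that interferon induces in vertebrates, was the described gene with the largest ratio among those highest in acidified library 1. It had 7.48, 0 and 1.08 CPM in acidified libraries 1, 2 and 3, and 1.54, 0.909 and 0.626 CPM in the controls. Library 1 was above every control, library 2 had no count and library 3 lay among the controls. Of 25 genes whose description names an interferon-induced protein 44, looked up after the values were seen, 22 reached 50 counts. Their median ratio was 2.73 among acidified and 1.79 among control libraries. A ratio of at least 8 was reached by 1 of the 22 among acidified libraries and by 1 among controls.

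Among stress proteins, the heat shock 70 kDa protein 12A-like gene Mve09G004530 (chromosome 9, 14585096 to 14591066), a distant relative of the HSP70 chaperones, had 11.8, 124.6 and 77.2 CPM in acidified libraries 1, 2 and 3. The controls had 26.0, 21.0 and 25.1 CPM, a ratio of 1.23. Libraries 2 and 3 were above all controls and library 1 was below them. It was the 1 of 74 heat shock genes meeting every other criterion that diverged, or 1.35%, where 0.485% of all such genes did. This share too only describes the set. The median ratio of the 74 was 1.53 among acidified and 1.40 among control libraries. Of the 96 genes described as heat shock 70 kDa protein 12, 69 reached 50 counts, and 2 of these had a ratio of at least 8 among acidified libraries and 3 among controls.

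Of the members, 2 are named for relatives that act on RNA. Caprin-2 (Mve12G008300, chromosome 12, 28492913 to 28509359), an RNA-binding protein whose vertebrate relative also carries a C1q-type domain, had 24.2, 268.6 and 397.7 CPM in acidified libraries 1, 2 and 3. The controls had 52.8, 58.3 and 78.4 CPM, so libraries 2 and 3 were above all of them and library 1 below. The 5'-3' exoribonuclease 1 gene Mve05G008570 (chromosome 5, 26075852 to 26157460), whose relatives degrade messenger RNA after its cap is removed, had 2.25, 0.296 and 23.1 CPM in acidified libraries 1, 2 and 3, and 7.07, 6.88 and 12.8 CPM in the controls. It was below all controls in libraries 1 and 2 and above them in library 3. The table has 5 genes with the same description, so this gene is 1 of several.

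Of metabolic genes, coproporphyrinogen-III oxidase (Mve05G009650, chromosome 5, 29694017 to 29705139), an enzyme of heme synthesis and the 1 gene of that description in the table, had 6.78, 24.5 and 63.6 CPM in acidified libraries 1, 2 and 3. The controls had 27.8, 17.2 and 15.0 CPM. On total counts, library 1 lay below every control, library 2 among them and library 3 above them. No member came from the lists of detoxification (127 genes that met every other criterion), antioxidant enzymes (26), shell matrix and calcification (26), acid-base and ion transport (115), ribosomal proteins (107) or antimicrobial effectors (4). The same held for cytoskeletal motors and actin (167), proteases and their inhibitors (112), neuronal transmission (69) and transposon or virus-like genes (10). Over all genes that met every other criterion, 0.485% were in the set. At that share, the lack of members in lists of these sizes is not read as a result.

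**Figure D3:**
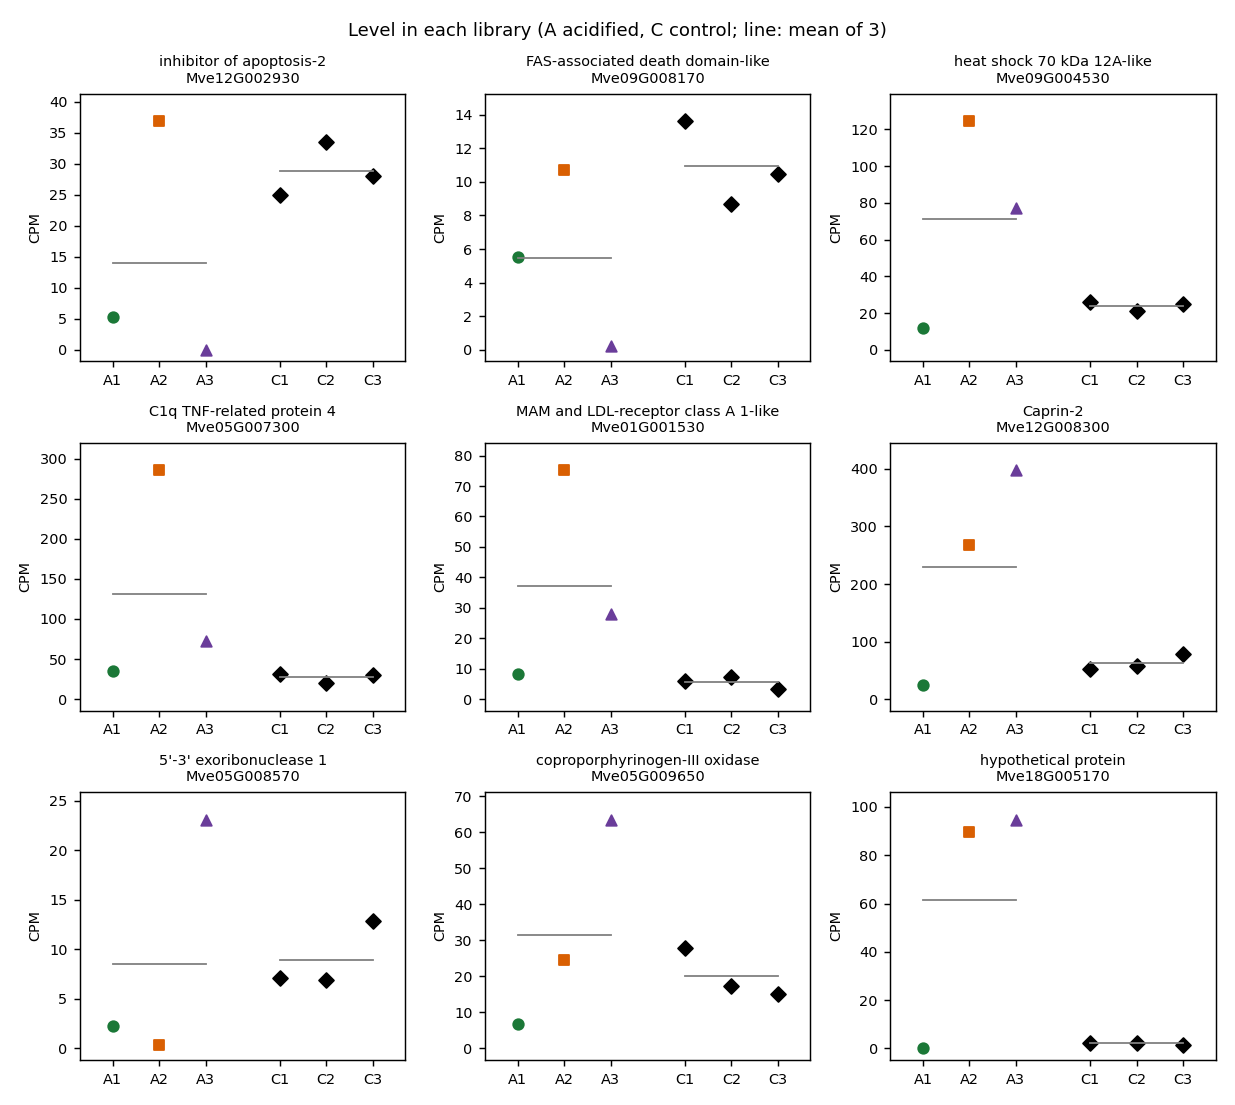
CPM in acidified libraries 1 to 3 (A1 to A3, coloured) and control libraries 1 to 3 (C1 to C3, black) for 9 genes, each on its own linear axis, with grey lines at the mean of 3 libraries. Acidified library 3 is at or near 0 for the inhibitor of apoptosis-2 and death domain genes and the highest for Caprin-2, the exoribonuclease, coproporphyrinogen-III oxidase and the hypothetical protein.

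Further described members belong to the cell surface, the matrix and vesicle traffic. The MAM and LDL-receptor class A domain-containing protein 1-like gene Mve01G001530, annotated as an extracellular metallopeptidase, had 8.39, 75.2 and 27.9 CPM in acidified libraries 1, 2 and 3, and 6.09, 7.24 and 3.41 CPM in the controls. All acidified libraries were above all controls, library 2 by far the most. The short-chain collagen C4-like gene Mve04G006230, a relative of a sponge matrix collagen chosen here after its values were seen, had 9.87, 23.6 and 2.35 CPM in acidified libraries 1, 2 and 3, and 8.80, 8.12 and 6.70 CPM in the controls. Libraries 1 and 2 were above every control and library 3 was below them.

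The innexin unc-9-like gene Mve06G013630, whose relatives form the gap junctions of invertebrates, had 3.05, 14.0 and 31.8 CPM in acidified libraries 1, 2 and 3, and 11.2, 5.36 and 7.11 CPM in the controls. Library 1 was below every control and libraries 2 and 3 were above them. The adjacent gene on chromosome 6, Mve06G013620, bears the same description and had 64.6, 174.7 and 371.8 CPM in acidified libraries 1, 2 and 3, the same order of libraries. Its controls had 169.0, 59.7 and 170.9 CPM, a ratio of 2.84, which kept it out of the set. Whether reads were shared between these relatives was not tested.

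Among GTPase genes, the Rab-1A gene Mve02G019020, whose relatives steer vesicles out of the endoplasmic reticulum, had 3.72, 1.32 and 0 CPM in acidified libraries 1, 2 and 3, and 1.57, 3.58 and 3.13 CPM in the controls. Library 1 was just above the highest control, library 2 below the lowest, and library 3 had no count. The adjacent gene Mve02G019030 bears the same description and had 374, 347 and 418 CPM in acidified libraries 1, 2 and 3. Its controls had 439, 351 and 434 CPM. The values of Mve02G019020 therefore do not stand for Rab-1A genes as a whole. Whether reads were shared between these 2 genes was not tested. The small G protein signaling modulator 1-like gene Mve11G014550, annotated as a GTPase activator, had 0.878, 7.27 and 0.378 CPM in acidified libraries 1, 2 and 3, and 3.54, 3.91 and 2.57 CPM in the controls, with library 2 above and the other two libraries below all of them. The BTB/POZ domain-containing protein 10-like gene Mve05G002340 had 3.51, 3.88 and 0 CPM in acidified libraries 1, 2 and 3, and 5.29, 5.88 and 5.89 CPM in the controls. Its control ratio of 1.10 was the lowest of the set, and all acidified libraries were below all controls, with no count in library 3.

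A block of 7 genes in the set shared the description uncharacterized protein LOC111135486 isoform X1 and made up every gene of that description in the table. They were singled out after their values were seen. They lay on chromosomes 3, 6, 7, 8, 11, 13 and 19, each spanned exactly 1912 bases, and all were highest in acidified library 3. Their counts ran from 13 to 20 in acidified library 1, from 30 to 39 in library 2 and from 361 to 389 in library 3. In control libraries 1, 2 and 3 the counts ran from 27 to 34, from 45 to 59 and from 33 to 46. Summed over the 7 genes the level was 4.28, 8.49 and 70.5 CPM in acidified libraries 1, 2 and 3 and 8.78 ± 2.50 CPM in controls (SD, n = 3), so library 3 was 8.03-fold above the control mean.

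Counts of the 7 genes were nearly equal within each library, but their sequences were not compared. Reads shared between them cannot be told apart with the files at hand. Counted once, the set held 48 genes, of which 16 were highest in acidified library 3. Of the 7 genes, 5 had a neighbour described as uncharacterized protein LOC111135488 or LOC110460901, on the opposite strand, with the genes facing each other end to end and exactly 199 bases between them in all 5 cases. An example is Mve06G000870 (chromosome 6, 2798953 to 2800864, plus strand) with Mve06G000880 (2801064 to 2802670, minus strand). The 8 genes in the table with these 2 neighbour descriptions had a ratio of 2.87 to 4.13 among acidified libraries, which kept them out of the set, and of 1.05 to 1.31 among controls. Summed, they had 14.4, 10.3 and 44.4 CPM in acidified libraries 1, 2 and 3 and 9.14 ± 0.555 CPM in controls (SD, n = 3). Library 3 was thus the highest for both groups of genes, 16.5-fold above library 1 for the 7 and 3.08-fold for the 8.

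**Figure D4:**
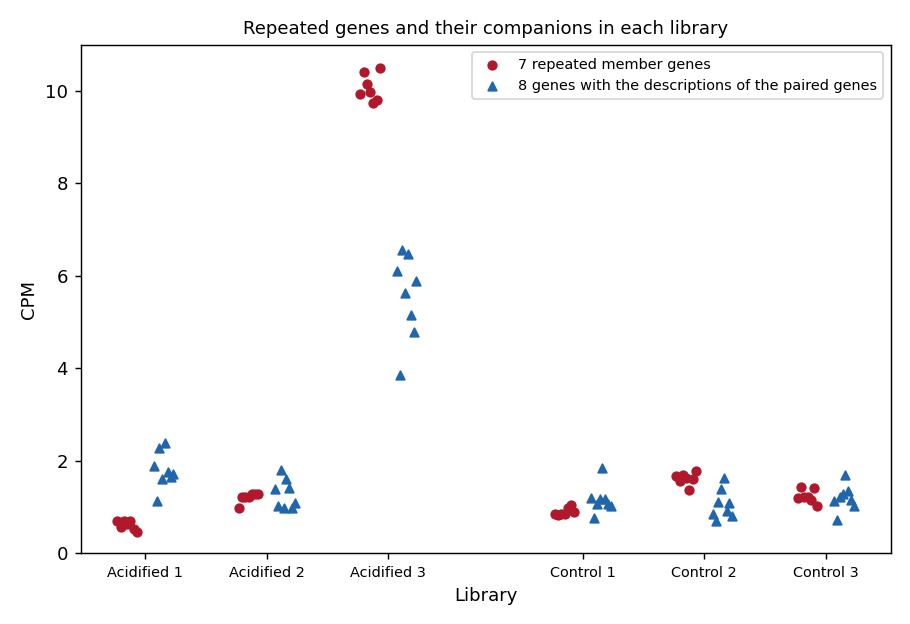
CPM of the 7 repeated genes (red circles) and of the 8 genes with the descriptions of their paired neighbours (blue triangles) in acidified libraries 1 to 3 and control libraries 1 to 3. In acidified library 3 the red circles sit between 9.74 and 10.5 CPM and the blue triangles between 3.86 and 6.56 CPM, and every point of the other libraries is under 2.40 CPM.

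Most members carry no name. Of the 54 genes, 16 had an informative description (29.6%), 17 were uncharacterized or hypothetical proteins (31.5%), the 7 repeated genes included, and 21 had no description (38.9%). Over the 11136 genes the shares were 68.6%, 21.4% and 9.93%. A gene ontology term was attached to 13 of the 54 genes (24.1%) and to 74.9% of the 11136. The median genomic span was 5297 bases for the 54 genes and 12592 bases for the 11136. The median control level was 5.63 CPM for the 54 genes and 12.3 CPM for the 11136, and 48.1% of the 54 against 24.1% of the 11136 were under 5 CPM. Low levels give wider counting error. Every member had at least 101 counts in its highest acidified library, and the part of counting error was not tested. Members lay on all 19 chromosomes, with at most 5 on 1 chromosome.

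The largest ratio of all, 190.6, belonged to a hypothetical protein gene without an informative description, Mve18G005170 (chromosome 18, 12611203 to 12615635). It had 0, 89.7 and 94.8 CPM in acidified libraries 1, 2 and 3, and 2.34, 2.33 and 1.44 CPM in the controls. Libraries 2 and 3 were far above the controls, while library 1 held no count, and library 3 was at least 900.1-fold above the floor of 3 counts in library 1. The adjacent gene, the monocarboxylate transporter 2 gene Mve18G005160, a relative of carriers for lactate and pyruvate, had 0.140, 1.45 and 27.3 CPM in acidified libraries 1, 2 and 3, and 0.123, 0 and 0 CPM in the controls. It was outside the set because of its low control level. Mve18G005170, its neighbour and the undescribed or hypothetical genes below, apart from the most abundant 5, were chosen after their values were seen.

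Among the 5 members with the highest mean level was the undescribed gene Mve13G000560, with 37.6, 762.0 and 1292 CPM in acidified libraries 1, 2 and 3, and 44.1, 31.3 and 28.8 CPM in the controls. Libraries 2 and 3 were 21.6-fold and 36.7-fold above the control mean with 0.5 CPM added, and library 1 was among the controls. Mve13G001060, also undescribed, had 1114, 132.4 and 286.2 CPM in acidified libraries 1, 2 and 3, and 480.8, 380.1 and 325.9 CPM in the controls, with library 1 above and the other two libraries below all controls. Mve16G008810, annotated with oligosaccharide binding, had 612.8, 906.3 and 82.8 CPM in acidified libraries 1, 2 and 3, and 513.3, 309.2 and 357.8 CPM in the controls, so that libraries 1 and 2 were above and library 3 below all of them. Mve11G014780, uncharacterized, had 105.7, 925.2 and 279.8 CPM in acidified libraries 1, 2 and 3, and 115.2, 132.9 and 99.1 CPM in the controls, with library 1 among them and libraries 2 and 3 above. The remaining gene of these 5 was Caprin-2.

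Other undescribed genes with a ratio of at least 16 differed in which library stood apart. Mve14G008950 had 3.62, 189.1 and 139.3 CPM in acidified libraries 1, 2 and 3, and 24.2, 19.8 and 37.6 CPM in the controls. Mve10G011430 had 144.7, 149.4 and 2.99 CPM in acidified libraries 1, 2 and 3, and 79.3, 54.7 and 61.8 CPM in the controls. In both genes 2 acidified libraries were above all controls while the remaining one was far below them, library 1 for Mve14G008950 and library 3 for Mve10G011430. Mve19G005950 had 63.7, 3.09 and 54.3 CPM in acidified libraries 1, 2 and 3, and 41.2, 37.3 and 21.7 CPM in the controls, so that library 2 was the low one. Mve15G006970 had 17.6, 8.39 and 0.297 CPM in acidified libraries 1, 2 and 3, and 8.37, 8.82 and 7.39 CPM in the controls, with library 1 high, library 2 at the control level and library 3 low. Mve02G016670 had 0.772, 22.6 and 3.51 CPM in acidified libraries 1, 2 and 3, and 1.54, 2.52 and 1.53 CPM in the controls, and only library 2 was beyond 2-fold of their mean with 0.5 CPM added to both levels.

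Smaller ratios showed the same variety of orders. The undescribed gene Mve16G000800 had 35.3, 2.67 and 6.31 CPM in acidified libraries 1, 2 and 3, and 11.7, 10.5 and 14.3 CPM in the controls, with library 1 above and the other two libraries below every control. The undescribed gene Mve14G004060 had 46.7, 9.18 and 86.7 CPM in acidified libraries 1, 2 and 3, and 19.7, 19.6 and 27.0 CPM in the controls, with library 2 the only one below the controls. The hypothetical protein gene Mve09G007730 had 12.7, 83.9 and 109.2 CPM in acidified libraries 1, 2 and 3, and 20.7, 11.1 and 14.5 CPM in the controls. Its libraries 2 and 3 were above every control and library 1 was among them, as for Mve13G000560. The hypothetical protein gene Mve14G008430 had 181.3, 107.0 and 13.0 CPM in acidified libraries 1, 2 and 3, and 96.6, 110.9 and 68.9 CPM in the controls, with library 1 above and library 3 far below all of them.

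No count was found in at least 1 acidified library for 12 of the 54 genes, in library 1 for 3, in library 2 for 4 and in library 3 for 6, with 1 gene counted under both libraries 1 and 3. The hypothetical protein gene Mve06G014810, annotated to the nucleus and to regulation of transcription, was without counts in acidified libraries 1 and 3 and had 12.2 CPM in library 2, against 21.2, 10.9 and 12.4 CPM in the controls. The control mean was at least 141-fold above the floor of 3 counts in library 1. Mve03G016860, annotated with monooxygenase activity and retinol metabolism, had 9.62, 148.7 and 109.4 CPM in acidified libraries 1, 2 and 3, and 144.1, 72.3 and 124.4 CPM in the controls, so that library 1 was far below the controls, library 2 just above the highest and library 3 among them. The undescribed gene Mve17G002200 had 20.7, 6.29 and 60.1 CPM in acidified libraries 1, 2 and 3, and 2.31, 4.15 and 1.91 CPM in the controls, with every acidified library above every control.

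The genes next to the members were looked at as a measure that the rule did not use. Of 108 neighbours, 1 on each side, none was itself a member and 76 reached 50 counts in a library. A ratio of at least 2 among acidified libraries was found in 35 of these (46.1%), against 31.9% of all genes at that count. In 20 of the 35 the highest acidified library was the same as for the member, and in 11 the lowest was the same too. The neighbours of the repeated genes made up 5 of the 20, and no test was made of these shares. How often other pairs of genes match in this way was not computed, so the matches are not read as a result.

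The comparison that the design implies, acidified against control, was fitted over 17790 genes by the quasi-likelihood test of edgeR, and all 54 members were among them. With Benjamini-Hochberg adjustment 0 members passed an adjusted p of 0.05, as did 0% of all genes, and the smallest adjusted p among the members was 0.125. At an unadjusted p under 0.05 there were 12 of the 54 members, where 17.4% of all genes were. DESeq2 gave 50 of the members an adjusted p and called 8, all higher in acidified libraries, where it called 6.26% of all genes. The 8 included Mve17G002200, Mve01G001530, Mve05G007300, Mve13G000560 and the heat shock gene Mve09G004530. The median log2 fold change was 0.98 for the members and -0.003 for all genes, with 44 members above 0 and 10 below. The 3 acidified libraries did not overlap the 3 controls in 4 of the 54 members and in 25.6% of all genes. Because the rule chose genes for their spread in these same libraries, none of these counts is read as a result about the members. Without acidified replicate 1, the same edgeR test and adjustment called 2 genes, both members. These were Mve18G005170, with a log2 fold change of 5.87 and an adjusted p of 0.0190, and Mve13G000560, with 5.26 and 0.0321. Both were at their lowest acidified level in the library left out and had been chosen for their spread with that library included. These 2 calls are therefore not read as a result about the members either.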

How the data were processed

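Whole-number counts for every gene and library, and FPKM values (counts per transcript length and library size), were deposited by the authors, per the file headers. Per the submitters' processing notes, cutadapt 1.9, HISAT2 2.2.1, StringTie 2.1.6, DESeq2 and edgeR were used; the build was not given in the sources used here. Libraries were strand-marked (dUTP), per the labels' protocols, but whether counting used strand is not stated. The 12 columns of 6 further libraries were not used here. Groups and replicate numbers come from the titles. If libraries are not separate animals, p-values measure technical spread.

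Counts were divided by column sums to CPM and the rule applied in Python 3.11.15. The members and lists were chosen with earlier results of these data known. Lists were 20 text patterns on the descriptions, 14 for processes and 6 for markers of other tissues. Intervals and floors (3 counts) cover counting error only. Named genes were, per acidified library, the 8 described members with the largest ratio, the 5 most abundant members, up to 2 per list and the 2 on each side of the threshold. Genes named outside this rule were chosen after their values were seen. Acidified and control libraries were compared with edgeR 4.0.16 (R 4.3.3), filterByExpr, TMM, glmQLFit and glmQLFTest with group alone, and Benjamini-Hochberg adjustment over 17790 genes; DESeq2 1.42.0 was the alternative. Rule and fit were also run on simulated data as a check of the code. The simulation of the rule held counting error alone and changed abundant genes only, so it says nothing about the spread of the members. Other alternatives changed the scaling, pseudocount, thresholds and libraries. No member overlaps another gene of the table.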

Additional observations from a re-analysis of the deposited data

How the results depend on the processing

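The number of genes that met the rule, 54, depended on its settings. It was 58 with TMM scaling and 47 at a minimum count of 200, and 48 with the 7 repeated genes counted once, an alternative added after the data were seen. With deposited FPKM it was 38, of which 12 were highest in acidified library 3. With a pseudocount of 0.1 it was 115, with 38, 41 and 36 highest in acidified libraries 1, 2 and 3. With a pseudocount of 1 it was 34, with 12 highest in library 3. Of the 54 genes, 48 met the rule with TMM scaling, 35 with FPKM, 43 with a pseudocount of 0.1 and 30 with 1. An acidified ratio of at least 4 gave 291 (117, 92 and 82), and one of at least 16 gave 11 (2, 5 and 4). A control ratio of at most 1.5 gave 19 (4, 9 and 6), and one of at most 3 gave 94 (22, 37 and 35). Without a minimum control level it was 105, with 23 and 51 highest in libraries 1 and 3. Leaving out 1 library gave 20 to 104 genes, and 5 to 30 highest in acidified library 1, 14 to 44 in library 2 and 9 to 36 in library 3. The low values came from leaving out an acidified library (23, 25 and 20 genes without replicates 1, 2 and 3) and the high ones from leaving out a control (93, 99 and 104). Fewer libraries make either criterion harder or easier by construction.

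In the quasi-likelihood test of edgeR no gene passed after adjustment over 17790 genes, and 3099 had an unadjusted p under 0.05. DESeq2 called 1113 genes, 8 of them members. Leaving out 1 library gave 0 to 2 genes, and 0 to 2 members. With the replicate number as a block the count of genes and of members was 0, and the deviations of same-numbered libraries correlated at 0.0138, -0.0456 and -0.0046 for numbers 1, 2 and 3. Of 6 libraries, 1 correlated best with its own number, and the numbers were not taken to pair the samples. Library size scaling, no filter on low counts and a robust fit each gave 0. The cause of these differences was not tested. Library depth limits what a zero means: 3 counts correspond to 0.0809 to 0.105 CPM in acidified and 0.0909 to 0.0940 CPM in control libraries.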
